A study of Mus musculus with 10 samples.

Results

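Transcription often goes on past the end of a gene, and in some places a run of nascent RNA starts again a short way downstream. The units described here are 709 such stretches of mouse embryonic stem cell chromatin, each an extragenic transcribed unit (TU) whose 5′ end lay 0 to 10000 bp past the 3′ end of a gene TU on the same strand. They were taken from 40779 TUs, of which 28459 had more than 10 fragments in at least 2 of the 10 libraries. Of the 6062 extragenic TUs that passed this minimum and had no extragenic TU on the opposite strand overlapping them or starting within 1000 bp, the other 5353 either began more than 10000 bp from a gene (5314 units) or had no gene upstream on their strand (39 units). No measured change entered the choice. The 709 units lay downstream of 690 gene TUs, 19 of which had 2 units each, and 690 of the units could be paired with a gene TU that passed the same minimum.

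The libraries came from E14 embryonic stem cells in which SOX2 carries an FKBP tag (genotype SOX2-FKBP), so that the dTAG-13 molecule leads to its degradation. Cells kept in medium with LIF and inhibitors of MEK and GSK3 received 500 nM dTAG-13 for 0.5, 1, 2 or 6 h (hours post-depletion) or DMSO as the control (NT, given as time 0), with 2 replicates a group. All groups carried the tag, including the controls, so nothing here compares tagged with untagged cells. RNA made during a 10-min pulse of 2 mM 4-thiouridine was fragmented, purified and sequenced (TTchem-seq), which measures RNA synthesis rather than stored RNA.

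At the end of a gene, cleavage and polyadenylation release the transcript while the polymerase keeps moving, until an exonuclease that degrades the remaining RNA and the slowing of the polymerase end transcription. Nascent RNA past a gene can therefore be the tail of the gene's own transcript (read-through), part of a longer isoform, or the product of a start site of its own, such as an unpaired enhancer, a long noncoding RNA or a repeat. A unit that is a gene's tail should follow that gene in time, so each unit was set beside the gene before it.

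Read-through cannot be seen in the sequence, but the units' first bases can be. The most frequent 8-base word in the first 50 bases of the units, counted on the unit's own strand, was TGGCTCAG, and the most frequent one among the units without it was AGGCAGAG. The first is a stretch near the 5′ end of the mouse B2 element and the second a stretch of the B1 element. No annotation of repeat classes was used here, so a unit's element is named from these 8 letters and the genome's repeat masking alone. B1 and B2 are short interspersed elements, repeats of which very many copies lie in the mouse genome and which carry an internal promoter for RNA polymerase III. The windows below run from 20 bases before to 99 bases after a unit's 5′ end (120 bases, build mm10, the unit's strand, 5′ to 3′) and show where these words sit. In the first 6, capitals mark the word. The last 3 are units with neither word, chosen by name, and how many such units begin near the end of a repeat was not counted. In these 3, capitals mark bases that the genome sequence does not mask as repeat. The change from lower case to capitals is where the repeat ends.
Pou3f1 unit, chr4:124669715-124669834, plus strand: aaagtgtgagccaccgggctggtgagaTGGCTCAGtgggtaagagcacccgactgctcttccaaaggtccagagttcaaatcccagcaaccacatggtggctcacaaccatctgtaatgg
Trim7 unit, chr11:48863072-48863191, plus strand: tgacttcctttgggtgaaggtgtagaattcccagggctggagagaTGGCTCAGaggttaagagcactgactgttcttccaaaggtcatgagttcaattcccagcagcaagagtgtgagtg
Bloc1s1 unit, chr10:128903315-128903434, minus strand: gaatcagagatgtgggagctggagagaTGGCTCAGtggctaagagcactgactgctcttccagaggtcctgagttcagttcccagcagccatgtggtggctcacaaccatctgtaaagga
D330050I16Rik unit, chr19:5399428-5399547, plus strand: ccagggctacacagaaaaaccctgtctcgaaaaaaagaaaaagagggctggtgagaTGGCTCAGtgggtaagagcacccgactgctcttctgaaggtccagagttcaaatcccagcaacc
AA388235 unit, chr17:33993624-33993743, plus strand: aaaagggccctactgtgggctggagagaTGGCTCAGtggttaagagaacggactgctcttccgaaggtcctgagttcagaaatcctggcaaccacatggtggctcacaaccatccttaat
Kiss1 unit, chr1:133338900-133339019, plus strand: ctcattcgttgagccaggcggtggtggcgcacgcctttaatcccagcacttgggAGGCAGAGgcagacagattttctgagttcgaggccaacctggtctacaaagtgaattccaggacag
Scn3a unit, chr2:65438798-65438917, minus strand: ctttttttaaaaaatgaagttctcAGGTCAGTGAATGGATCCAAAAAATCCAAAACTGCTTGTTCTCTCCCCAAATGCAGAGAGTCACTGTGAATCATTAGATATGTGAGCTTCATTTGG
Rbmxl2 unit, chr7:107271470-107271589, plus strand: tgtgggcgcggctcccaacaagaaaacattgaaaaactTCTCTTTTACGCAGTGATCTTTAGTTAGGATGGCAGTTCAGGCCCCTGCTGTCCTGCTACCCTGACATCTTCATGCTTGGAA
Cdkal1 unit, chr13:29704782-29704901, minus strand: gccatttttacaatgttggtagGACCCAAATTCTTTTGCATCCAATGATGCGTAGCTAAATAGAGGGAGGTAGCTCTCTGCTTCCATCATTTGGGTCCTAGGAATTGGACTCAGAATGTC

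TGGCTCAG lay in the first 50 bases of 85 of the 709 units (12%), against 782 of the 5353 other unpaired extragenic units (14.6%) and 63 of 32851 RefSeq promoters (0.192%, build GRCm38, bases 1 to 50 after the gene start). Its reverse complement, CTGAGCCA, lay there in 0 of 709 units, which allows a share of up to 0.423%, 11 other units (0.205%) and 115 promoters (0.35%). AGGCAGAG was found in 40 units, none of them with the first word (5.64%; 5.4% of the other units and 0.402% of promoters), and its reverse complement, CTCTGCCT, in 3 (0.423%; 0.654% of the other units and 0.368% of promoters). Both words were thus found almost only in 1 orientation, that of the unit. They were picked as most frequent on that strand of these 709 units, so only the shares of the other units are free of that choice. The first word began at base 7 in the median unit (quartiles 7 and 8) and the second at base 35 (quartiles 33 and 37), so the deposited 5′ ends sat at a near-fixed distance from the word. Over all unpaired extragenic units, the commonest base was 8 on the plus strand (157 of 451 units) and 7 on the minus strand (129 of 416 units). Plus-strand starts may therefore be 1 bp low, and coordinates are given as deposited. The first 50 bases were wholly repeat-masked in 81 of the 85 units with the first word and 38 of the 40 with the second, but in 166 of the 584 with neither.

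Units with either word were short. Their median length was 424 bp with the first word and 652 bp with the second, against 7076 bp with neither word. Of the 147 units under 1000 bp, 67 had the first word and 26 the second. Across all 709 units, lengths ran from 140 to 359796 bp (quartiles 1266, 5569 and 12001 bp). In the 300 bases from 250 before to 50 after the 5′ end, with both strands read, TGGCTCAG was found in 14.2% of the units, 18.2% of other units and 3.06% of promoters, and AGGCAGAG in 13.5%, 11.3% and 4.46%. For comparison, the same windows held AACAAT, a core of the SOX motif, in 13.8%, 13.2% and 10.7%, ACAAAG in 21.3%, 22.5% and 18.7%, and the TATA-box letters TATAAA in 19%, 18.1% and 13.6%. Matches of different motifs that overlap each other were all counted.

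**Figure D1:**
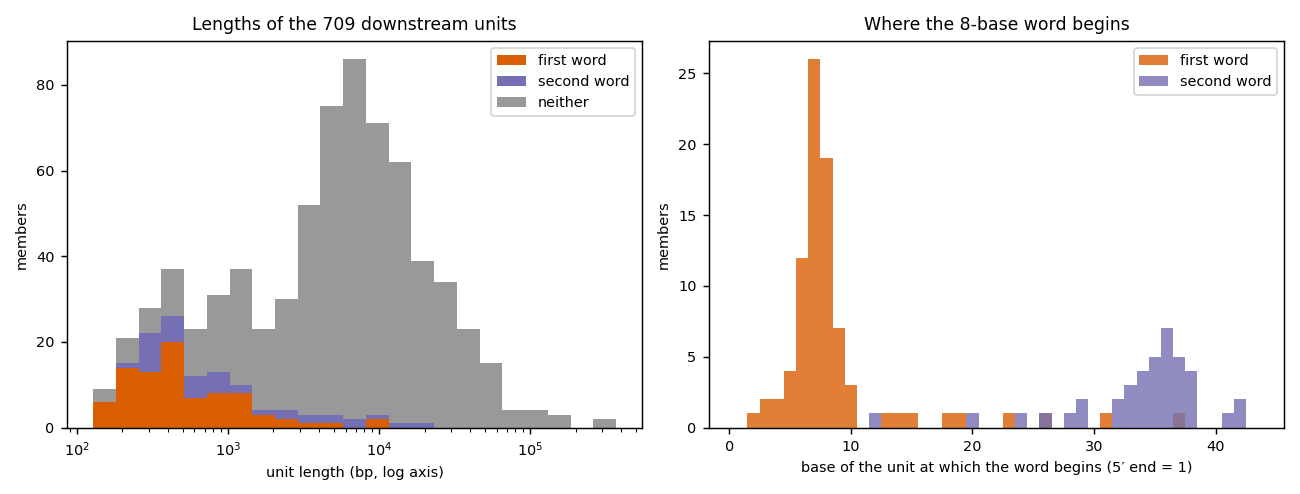
Left, the number of downstream units by length in bp (log axis), stacked by the 8-base word in the unit's first 50 bases; right, the base of the unit at which the word begins, counted from 1 at the 5′ end. The 85 units with the first word (orange) have a median length of 424 bp and gather around base 7, the 40 with the second (purple) around base 35, and the 584 with neither (grey) have a median length of 7076 bp.

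The gap between the gene's 3′ end and the unit's 5′ end ran from 503 bp (Gm20300, a predicted gene) and 572 bp (Slc30a7, a zinc transporter) to 9958 bp (Cfl2, a cofilin) and 9973 bp (Mrto4, a ribosome assembly factor), with a median of 4443 bp. It was at most 1000 bp for 43 units, at most 2500 bp for a further 179, at most 5000 bp for 170 more and longer for 317. None of these 4 pairs at the ends of the range changed, in unit or gene, at an adjusted p under 0.05. The units just outside 10000 bp, after Stxbp2 (10013 bp) and Trim27 (10091 bp), had a log2 fold change at 6 h of -0.86 and -1.20, with no call at any time. In 177 units at least 90% of the gap was repeat-masked, while the stretch of equal length after the unit was so in 58. What part the mapping of reads has in these gaps was not tested. Another TU on the same strand lay between gene and unit for 79 units.

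Where the annotation was read, 125 units (17.6%) overlapped a GENCODE transcript of the very gene before them, 122 a transcript of another gene on their strand, and 462 none. The first kind were longer (median 15783 bp) than the last (3680 bp), and 1 of the 85 units with the first word was among them. A GENCODE transcript started within 500 bp of the 5′ end of 5.78% of the units and 14.3% of the other unpaired units.

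The libraries held 11131490 to 25854106 fragments in TUs, of which 0.359 to 0.410% (42941 to 98525 fragments) fell in the 709 units. The median unit had a mean of 18.1 fragments a library (quartiles 10.6 and 52.7), 321 units had over 10 fragments in every library, and 80 in exactly 2. Levels are given as fragments scaled to library size (CPM) after TMM scaling, where 3 fragments correspond to 0.117 to 0.257 CPM. Between replicates, log2 CPM of the units correlated with r of 0.939 to 0.964. Summed CPM of 8 embryonic stem cell markers stood at 3362 to 4347 in every library. It was 18.4 to 30.0 for neural, 1.96 to 3.74 for endoderm, 2.89 to 9.58 for mesoderm, 22.0 to 45.6 for trophoblast and 0.312 to 1.16 for fibroblast markers. Of the 8, 1, 2, 4 and 5 were called down at 0.5, 1, 2 and 6 h, against 0.787, 3.61, 5.57 and 9.2% of all TUs. The Sox2 gene TU was not called at any time (243 and 283 CPM in NT, 271 and 278 CPM at 6 h), which does not check the depletion, since the tag acts on the protein. In such bulk libraries, fewer cells making a transcript and less of it per cell cannot be told apart.

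Few of the 709 units changed early, and more fell than rose. Tested with edgeR's quasi-likelihood test (Benjamini-Hochberg adjusted over 28459 TUs, called at an adjusted p under 0.05), 5 units fell and 1 rose at 0.5 h, 14 fell and 4 rose at 1 h, 20 fell and 9 rose at 2 h, and 55 fell and 18 rose at 6 h. As shares of the 709, the falls were 0.705, 1.97, 2.82 and 7.76%, while of all TUs 0.787, 3.61, 5.57 and 9.2% were called down. The rises were 0.141, 0.564, 1.27 and 2.54%, while 0.527, 2.15, 4.26 and 6.61% of all TUs were called up. At every time these shares of the units were no higher than those of TUs at large, many of which hold more fragments than a downstream unit. For falls this order turned without NT replicate 1 at 0.5 h (5 of 709 units against 131 of 28459 TUs) and 6 h (66 against 2537), and without 0.5 hpd replicate 2 at 0.5 h (2 against 76). In a joint test of the 4 times 41 units (5.78%) were called, against 12.3% of all TUs. At 0.5 h the units that fell followed Scn3a, Kiss1, Gm39592, Klf2 and Gabrp and the one that rose Gm30627, and at 1 h those that rose followed LOC108168079, Gm30627, Ppil1 and Usp12. Scaled to total counts instead of TMM, 4, 16, 26 and 64 units fell and 1, 2, 3 and 12 rose. At an unadjusted p under 0.05 there were 24, 43, 60 and 129 falls and 14, 26, 50 and 46 rises.

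The counts leaned on single libraries. Without NT replicate 2 the falls at 0.5, 1, 2 and 6 h numbered 1, 6, 12 and 22 and the rises 0, 0, 1 and 7. Without 6 hpd replicate 1 or 2, 28 or 25 units fell at 6 h, and without replicate 2 only 6 rose. Without either 1 hpd library 6 units fell and 1 rose at 1 h, and at 2 h 13 fell and 1 rose without 2 hpd replicate 1, while without replicate 2 rises outnumbered falls, with 28 against 22. Without NT replicate 1, 5 units rose at 2 h. The falls at 0.5 h numbered 1 or 2 without either library of that time and 3 without either 6 hpd library, and the single rise was also lost without NT replicate 1 or any of the 0.5 and 1 hpd libraries. Without 6 hpd replicate 2, 26 units were called in the joint test. Only 2 units had passed the count minimum through the NT libraries alone, and of the 690 units that would pass it without them, 49 fell and 18 rose at 6 h.

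The median unit stood close to 0 until 2 h and slightly below it at 6 h. Its log2 fold change was -0.02 at 0.5 h, -0.03 at 1 h, -0.05 at 2 h and -0.14 at 6 h, with 422 of 709 units below 0 at the last time. Over all TUs the medians were -0.02, -0.04, -0.04 and -0.04, over the other unpaired extragenic units -0.11, -0.17, -0.20 and -0.32, and over the 671 genes upstream of the units 0.02, 0.06, 0.08 and 0.10. The units' medians leaned on single control libraries. Without NT replicate 2 they were 0.11, 0.12, 0.09 and -0.01, with 273, 287, 304 and 361 of 709 units below 0, and without NT replicate 1 they were -0.12, -0.12, -0.17 and -0.26. Leaving out 0.5 hpd replicate 1 or 1 hpd replicate 1 also put that time's median above 0 (0.01 each). The other unpaired units likewise went to 0.05, 0.02, -0.02 and -0.12 without NT replicate 2 and -0.23, -0.27, -0.33 and -0.43 without NT replicate 1. The genes' median turned to -0.01 at 0.5 h without NT replicate 2 and -0.02 without 0.5 hpd replicate 1. Scaling to total counts instead of TMM moved the medians to -0.06, -0.12, -0.17 and -0.24 for the units, -0.01, -0.03, -0.03 and 0.01 for the genes and -0.06, -0.13, -0.16 and -0.13 for all TUs, and with RLE factors the units' median at 1 h was 0.00.

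Between successive times no unit was called up, with 11, 9 and 14 units higher at an unadjusted p under 0.05 from 0.5 to 1, 1 to 2 and 2 to 6 h, and 1 rise called by DESeq2 from 1 to 2 h. The background of such rises over all TUs was 0.0105, 0.0211 and 0.26%. One unit fell from 0.5 to 1 h (0.141% against 0.0984% of all TUs) and 1 from 1 to 2 h (0.141% against 0.197%). The units were those after Gm33006 (log2 change -3.32 ± 0.40 (SE), adjusted p = 0.00395) and Gm36038 (-0.86 ± 0.14, adjusted p = 0.0165). From 2 to 6 h 4 units fell (0.564% against 0.517%), those after Gm34996, Gm36038, Kctd5 and Serpinb6a. These single calls were lost without either library of the times compared, except that the first held without 0.5 hpd replicate 2, and the 4 shrank to 1 or 2 without a 2 or 6 hpd library.

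The unit after Scn3a, the gene for a neuronal sodium channel subunit, lost most of its signal within 30 min while the gene itself fell slowly. It spans 5589 bp at chr2:65433309-65438897 (minus strand), 8697 bp past the gene and outside any GENCODE transcript. Its level was 8.21 and 20.1 CPM in NT, 1.52 and 2.05 at 0.5 h, 0.815 and 0.569 at 1 h, 0.404 and 0.701 at 2 h and 0.0702 and 0.175 at 6 h, the last from 1 and 3 fragments. The NT replicates differed more than 2-fold, but every depleted library lay below both. The gene stood at 17.9 and 21.6 CPM in NT, 14.6 and 14.5 at 0.5 h, 8.19 and 11.1 at 2 h and 4.57 and 5.30 at 6 h. The unit's log2 fold change was -3.03 ± 0.37 (SE), -4.35 ± 0.43 and -4.68 ± 0.44 at 0.5, 1 and 2 h (adjusted p = 6.83e-04, 2.30e-05 and 7.97e-06), and the gene's -0.44 ± 0.16, -0.77 ± 0.16 and -1.04 ± 0.16. The unit-to-gene ratio, tested in a model over both, fell by 2.47 ± 0.38, 3.46 ± 0.43 and 3.53 ± 0.44 (adjusted p = 0.00786, 1.61e-04 and 8.34e-05). At 0.5 h the ratio's call was lost without NT replicate 2 or either 0.5 hpd library, with a value of -1.94 at the least, and by limma (-2.35, adjusted p = 0.0545). In NT the unit held 1544% of its gene's CPM per kb, so it was denser than the gene before it.

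Other units fell beside a gene that did not. Serpinb6a encodes an intracellular serine protease inhibitor, and the 12651-bp unit 3297 bp past it (chr13:33892698-33905348, minus strand) overlaps Serpinb6c, a gene of the same family. That unit's level was 8.82 and 8.28 CPM in NT, 8.08 and 9.49 at 0.5 h, 7.65 and 8.94 at 1 h, 4.75 and 5.08 at 2 h and 2.39 and 2.74 at 6 h. The 1-hour libraries still overlapped NT, and those of 2 and 6 h lay below it. Its gene stayed between 51.1 and 60.1 CPM in all 10 libraries. The unit's log2 fold change was -0.80 ± 0.18 at 2 h (adjusted p = 0.00942, lost without NT replicate 1 or 2 hpd replicate 1) and -1.73 ± 0.20 at 6 h (adjusted p = 2.66e-05), and its ratio to the gene fell by 1.92 ± 0.29 at 6 h (adjusted p = 2.49e-04). As members of 1 gene family, Serpinb6a and Serpinb6c can share reads, and how the counting split these is not known.

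Rbmxl2 encodes an RNA-binding protein of male germ cells. The 30315-bp unit 7082 bp past it (chr7:107271490-107301804, plus strand) overlaps Platr28, a long noncoding RNA named for its association with pluripotency, and its whole gap was repeat-masked. It stood at 51.2 and 46.4 CPM in NT, 49.9 and 38.1 at 0.5 h, 35.2 and 33.2 at 1 h, 27.7 and 19.3 at 2 h and 13.7 and 19.4 at 6 h. Every library from 1 h on lay below both NT libraries. The gene TU ranged from 121 to 176 CPM with no trend, with 168 and 173 CPM in NT and 1 depleted library above these. The unit's log2 fold change was -1.05 ± 0.18 at 2 h and -1.55 ± 0.19 at 6 h (adjusted p = 0.00139 and 4.35e-05), and the ratio fell by 0.96 ± 0.21 and 1.35 ± 0.22 (adjusted p = 0.0105 and 4.45e-04). At 2 h the call on the ratio was lost without NT replicate 1 or 2 hpd replicate 2.

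Trim28 encodes a corepressor that silences retroelements. A 757-bp unit 2229 bp past it held 2.36 and 4.87 CPM in NT, 2.46 and 2.74 at 0.5 h, 1.63 and 1.71 at 1 h, 1.37 and 1.23 at 2 h and 0.632 and 0.932 at 6 h. NT replicate 2 was the highest library, and all from 1 h on lay below both NT libraries. The unit's log2 fold change was -1.46 ± 0.34 at 2 h (adjusted p = 0.0115; lost without NT replicate 2 or 2 hpd replicate 1) and -2.17 ± 0.37 at 6 h (adjusted p = 0.00104), and the gene's -0.12 and -0.10. The ratio fell by 2.05 ± 0.34 at 6 h (adjusted p = 5.87e-04). The unit after Mtpap, the mitochondrial poly(A) polymerase gene, was picked after its values were seen. It lies 872 bp past the gene and fell by 1.87 ± 0.38, 2.73 ± 0.42 and 2.95 ± 0.45 on the log2 scale at 1, 2 and 6 h (adjusted p = 0.00789, 5.77e-04 and 3.57e-04) while the gene's log2 fold change lay between -0.31 and -0.23.

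In a further set of pairs, unit and gene fell together. Klf2, which encodes a transcription factor of naive pluripotency, fell from 76.9 and 79.1 CPM in NT to 13.5 and 12.3 at 0.5 h, 6.46 and 7.29 at 1 h, 5.26 and 6.84 at 2 h and 6.67 and 6.35 at 6 h. The 2984-bp unit 4600 bp past it held 17 and 12 fragments in NT, 2 and 3 at 0.5 h, 1 and 1 at 1 h, none at 2 h and 1 and 1 at 6 h. Both dropped at the first time and stayed low. At 0.5 h the log2 fold change was -2.82 ± 0.60 in the unit (adjusted p = 0.035) and -2.58 ± 0.13 in the gene (adjusted p = 1.31e-07), and their ratio changed by -0.25 ± 0.54 (adjusted p = 0.973). The unit's call at 0.5 h was lost in 8 of 10 fits that left out 1 library, all but those without a 2 hpd library, and that at 1 h without 1 hpd replicate 2. At 2 h the unit was at least 12.4-fold lower than in NT, taking 3 fragments over the group as the floor. The 5833-bp unit after Gm36540, picked after its values were seen, likewise fell from 9 and 15 fragments in NT to none at 2 and 6 h, at least 10.4-fold and 8.88-fold lower, and its gene fell from 5.99 and 12.1 CPM to 0.0702 and 0.116 at 6 h.

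Gm39592, a predicted gene, and the 27632-bp unit 3595 bp past it (chr1:13057151-13084782, minus strand, over the predicted gene Gm37162) also fell together, with no call on the ratio (adjusted p = 0.537 to 0.979). The unit stood at 9.63 and 14.1 CPM in NT, 3.98 and 5.64 at 0.5 h, 3.20 and 3.13 at 1 h, 2.02 and 3.51 at 2 h and 2.67 and 3.09 at 6 h. Every depleted library lay below NT. Its log2 fold change was -1.34 ± 0.25, -1.90 ± 0.27, -2.11 ± 0.27 and -2.03 ± 0.27 (adjusted p = 0.0148, 4.04e-04, 1.18e-04 and 1.14e-04), against -1.17, -1.69, -1.54 and -1.97 in the gene, and the ratio changed by no more than -0.57 ± 0.44. At 0.5 h the unit's call was lost without NT replicate 2 or 0.5 hpd replicate 1. The unit after Gabrp, the gene for a subunit of the GABA-A receptor, spans 21109 bp and held far more signal than its gene, 1476% of it per kb in NT. It fell from 45.2 and 61.1 CPM in NT to 27.2 and 34.8, 17.8 and 24.5, 16.6 and 19.2 and 13.1 and 15.3 CPM at the 4 times, a log2 fold change of -1.90 ± 0.19 at 6 h (adjusted p = 6.44e-06). Its call at 0.5 h (-0.79 ± 0.17, adjusted p = 0.0369) was lost without NT replicate 2 or either library of 0.5 or 6 h, and under total-count scaling (adjusted p = 0.0529). The gene was low, at 0.342 to 1.82 CPM, and its own change of -1.02 ± 0.56 was not called. Kiss1, the kisspeptin precursor gene, was also low (0.0569 to 1.53 CPM), and the unit after it, which begins with the second word, fell from 2.15 and 4.72 CPM in NT to 0.492 and 0.524 at 6 h (-2.73 ± 0.42, adjusted p = 4.16e-04). Its earlier calls were all lost without NT replicate 2.

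A late fall shared by both members of a pair was seen after Gm34996, a predicted gene of 124318 bp whose 144385-bp unit runs into Erc2, a gene for a presynaptic scaffold protein. This pair was picked after its values were seen. The unit stood at 13.9 and 14.5 CPM in NT, 17.6 and 14.5 at 0.5 h, 18.1 and 16.1 at 1 h, 19.0 and 14.4 at 2 h and 4.71 and 4.95 at 6 h. Only the 6 hpd libraries lay below NT. The log2 fold change at 6 h was -1.55 ± 0.18 in the unit and -1.64 ± 0.23 in the gene (adjusted p = 3.04e-05 and 2.01e-04). Per kb the unit held 95.9% of its gene's level in NT, and the whole gap was repeat-masked.

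After a few genes that fell early, the unit fell less at first. Gm33006 is a predicted gene of 6237 bp, and its unit covers 20433 bp from 6505 bp past it (chr17:79621090-79641522, minus strand) behind a gap that is wholly repeat-masked. The gene fell from 6.66 and 8.14 CPM in NT to 0.546 and 0.599 at 0.5 h and 0.125 and 0.114 at 1 h. The unit went from 4.17 and 6.32 CPM in NT to 3.32 and 2.65 at 0.5 h, and then to 0.314 and 0.285 at 1 h, 0.455 and 0.292 at 2 h and 0.421 and 0.291 at 6 h. So at 30 min the gene was further below its NT level than the unit, and 30 min later the unit was low too. At 0.5 h the log2 fold change was -3.69 ± 0.29 in the gene (adjusted p = 1.89e-05) and -0.78 ± 0.26 in the unit (adjusted p = 0.227), and the ratio rose by 2.94 ± 0.39 (adjusted p = 0.00148; 0.31 without 0.5 hpd replicate 1). At 1 h the unit was at -4.10 ± 0.38 (adjusted p = 1.22e-05). From 1 h on the gene was under the level of 3 fragments in every library, so the later ratios, though called at 2 and 6 h (calls lost without either library of those times), set 2 levels near the floor against each other.

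Gm36038, a predicted gene of 47739 bp, was also called down at 0.5 h while its unit was not, but the test of the difference, that of the ratio, made no call. The gene stood at 167 and 170 CPM in NT, 111 and 117 at 0.5 h, 69.5 and 65.9 at 1 h, 43.6 and 44.5 at 2 h and 28.3 and 22.7 at 6 h. The 28163-bp unit 1828 bp past it (chr2:172626482-172654644, plus strand) stood at 22.3 and 24.6, 22.0 and 22.1, 14.8 and 14.9, 8.14 and 8.24 and 4.28 and 5.12 CPM. At 0.5 h the gene's libraries were clear of NT and the unit's lay only just below it. The log2 fold changes at the 4 times were -0.57 ± 0.11, -1.32 ± 0.11, -1.94 ± 0.11 and -2.73 ± 0.12 in the gene (all called) and -0.09 ± 0.12, -0.66 ± 0.13, -1.51 ± 0.13 and -2.31 ± 0.15 in the unit (adjusted p = 0.917, 0.00542, 4.71e-06 and 9.83e-08). The ratio itself, higher by 0.48 ± 0.24, 0.66 ± 0.24, 0.42 ± 0.24 and 0.43 ± 0.26, was not called at any time (adjusted p = 0.646, 0.179, 0.375 and 0.3). The unit's call at 1 h was lost without NT replicate 2 or either 1 hpd library.

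Spic, which encodes an ETS-family transcription factor, fell from 51.5 and 59.0 CPM in NT to 19.6 and 25.7 at 0.5 h and 12.7 and 17.8 at 1 h. Its 5009-bp unit, 6351 bp downstream and over the predicted gene Gm48106, held 14 and 21 fragments in NT, 38 and 13 at 0.5 h, 17 and 28 at 1 h, 6 and 11 at 2 h and 6 and 7 at 6 h. The unit overlapped its NT level (0.942 and 1.53 CPM) up to 1 h and lay below it at 2 and 6 h. At 1 h the ratio was higher by 1.98 ± 0.41 (adjusted p = 0.00929; lost without NT replicate 1 or either 1 hpd library). At 6 h the unit had fallen by 1.55 ± 0.48 (adjusted p = 0.042 by edgeR, 0.136 by DESeq2, and lost without NT replicate 2 or either 6 hpd library).

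These 3 pairs were among the 8 whose gene was called down at 0.5 h, the others following 4930526L06Rik, Adrb3, Klf2, LOC105243127 and Sgol2b. Since the gene's fall chose the pairs, their values are only described. At 0.5, 1, 2 and 6 h the median gene of the 8 was at -1.02, -1.61, -2.08 and -2.57 and the median unit at -0.55, -0.93, -1.45 and -1.97, and the unit had fallen less than its gene in 6, 6, 7 and 4 of the 8. Among the 31 pairs whose gene was called down at 1 h, the medians were -0.50, -1.01, -1.19 and -1.32 for the gene and -0.53, -0.78, -1.03 and -1.13 for the unit, and the unit had fallen less in 19, 23, 21 and 14 of them. 

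**Figure D2:**
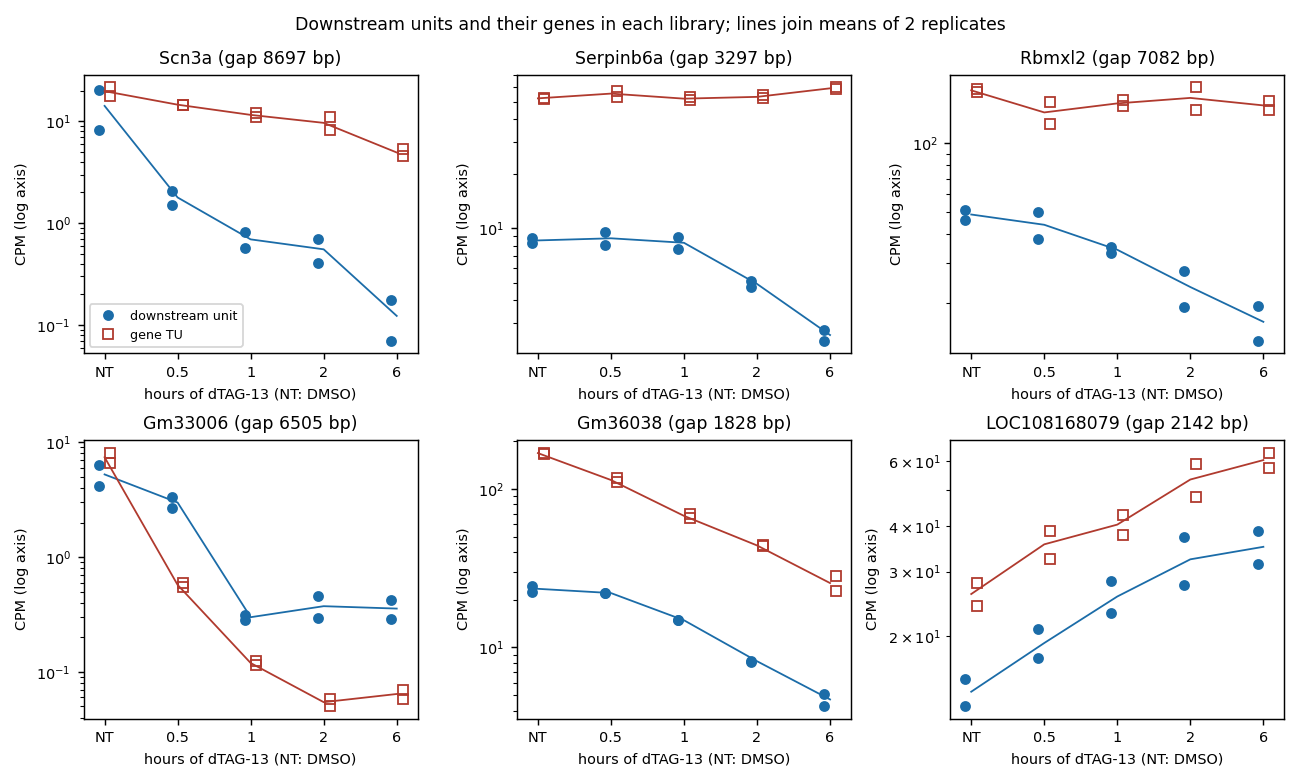
CPM (log axis) of 6 downstream units (blue circles) and their gene TUs (open red squares) in each of the 10 libraries, by hours of dTAG-13, with lines joining the means of 2 replicates. After Scn3a, Serpinb6a and Rbmxl2 the unit fell away from its gene, after Gm33006 it had fallen less than the gene at 0.5 h, after Gm36038 both fell, and after LOC108168079 both rose.

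Rising units mostly followed a rising gene. LOC108168079 is a predicted gene of 35328 bp whose 41830-bp unit begins 2142 bp past it (chr13:42086840-42128669, plus strand) and overlaps Hivep1, which encodes a zinc finger transcription factor. The unit stood at 15.3 and 12.9 CPM in NT, 20.9 and 17.4 at 0.5 h, 28.2 and 23.1 at 1 h, 37.2 and 27.6 at 2 h and 31.4 and 38.7 at 6 h. Every depleted library lay above NT. Its log2 fold change was 0.86 ± 0.17, 1.20 ± 0.17 and 1.31 ± 0.17 at 1, 2 and 6 h (adjusted p = 0.0077, 3.56e-04 and 1.07e-04), and the gene's 0.63, 1.04 and 1.21, with a ratio within 0.22 ± 0.22 of no change. The call at 1 h was lost without NT replicate 2 or 1 hpd replicate 1.

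Several of the risen units lie in their own gene. Among the 18 units called up at 6 h, 10 overlapped a transcript of the gene before them, 6 that of another gene and 2 none, and their median length was 28910 bp. Of the 55 called down, 1 overlapped its own gene, 9 another gene and 45 none, with a median length of 4653 bp. Over all units of each kind, 10 of 125 in their own gene were called up and 1 down, 6 of 122 in another gene up and 9 down, and 2 of 462 outside genes up and 45 down, with median log2 fold changes at 6 h of 0.17, -0.05 and -0.33. The shares called up were 8, 4.92 and 0.433% against 6.61% of all TUs, and those called down 0.8, 7.38 and 9.74% against 9.2%, so the highest share in each direction was near that of TUs at large. No test between the kinds was made. Without NT replicate 2, 15 of the 462 were called down and their median was -0.13, and the median of the 122 was 0.07.

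The unit after Atrnl1, an attractin-like gene, stood at 8.21 and 8.57 CPM in NT and 14.3 and 15.0 at 6 h (0.80 ± 0.17, adjusted p = 0.00532), beside a gene change of 0.59 ± 0.14 (adjusted p = 0.00823). That after Cckbr, the gene for a cholecystokinin receptor, rose from 1.82 and 2.11 CPM in NT to 3.39 and 3.62 at 2 h and 5.20 and 5.18 at 6 h (1.40 ± 0.23, adjusted p = 7.01e-04), while the gene's 0.76 ± 0.27 was not called (adjusted p = 0.0717). The call of that unit at 2 h (0.84 ± 0.24, adjusted p = 0.0357) was lost in 7 of 10 fits without 1 library, in DESeq2 (adjusted p = 0.0883) and under total-count scaling (adjusted p = 0.0992). The unit after Rsrc1, a splicing-related gene, rose by 0.61 ± 0.16 at 2 h and 0.49 ± 0.16 at 6 h (adjusted p = 0.0238 and 0.0482), the latter lost without either library of NT, 1 h or 6 h and the former without either NT library or 2 hpd replicate 1. The unit after Zim2, an imprinted gene, reached 0.58 ± 0.14 at 2 h beside 0.40 ± 0.11 in the gene (adjusted p = 0.0187 and 0.0385; the unit's call was lost without either NT library or 2 hpd replicate 1, and under total-count scaling with adjusted p = 0.0633).

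Stag1 encodes a cohesin subunit, and its 48533-bp unit, within the gene's own annotation, was among the 4 with most fragments. It stood at 107 and 102 CPM in NT and 132 and 160 at 6 h (0.48 ± 0.12, adjusted p = 0.0158; lost without NT replicate 2 or 6 hpd replicate 2), beside a gene change of 0.57 ± 0.16 (adjusted p = 0.0257). The others with most fragments were not called. The 359796-bp unit after Cdkal1, a tRNA-modifying enzyme gene, lies within Cdkal1's own annotation and held 237 and 228 CPM in NT and 240 and 273 CPM at 6 h (0.14 ± 0.15, adjusted p = 0.564), with a gene change of 0.20 ± 0.13. The unit after Chchd3, a gene for a protein of mitochondrial cristae, stood at 0.15 ± 0.14 at 6 h and that after BC002059 at 0.18 ± 0.13. Both of these, like that after Cdkal1, follow a wholly repeat-masked gap.

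Some risen units stood beside a gene that was not called. The unit after Gm30627, a predicted gene, rose only early, from 1.01 and 0.872 CPM in NT to 2.69 and 2.22 at 0.5 h and 2.45 and 2.73 at 1 h, and was back at 1.16 and 1.23 at 2 h and 0.632 and 0.699 at 6 h. Its log2 fold change was 1.40 ± 0.30 at 0.5 h (adjusted p = 0.0299, lost without any of the NT, 0.5 or 1 hpd libraries and in a fit of the compared libraries alone) and 1.45 ± 0.30 at 1 h (adjusted p = 0.00792, lost without NT replicate 2 or 1 hpd replicate 2). The gene's values of 1.50 ± 0.55 and 1.71 ± 0.54 were not called. The unit after Ppil1, a spliceosomal isomerase gene, overlaps Cpne5 and rose from 6.60 and 5.09 CPM in NT to 9.97 and 10.2 at 1 h (0.78 ± 0.18, adjusted p = 0.0146; lost without NT replicate 2 or either 1 hpd library and under total-count scaling, where it was 0.70 with adjusted p = 0.0561), with a gene change of -0.03 ± 0.11. At 2 h its value was 0.62 ± 0.18 (adjusted p = 0.0368, lost in 7 of 10 fits without 1 library and under total-count scaling, at 0.51 with adjusted p = 0.128). Picked after their values were seen, the 2 units outside all annotation that rose at 6 h, after Nfkbia and Reep3, held few fragments (3 and 4 in NT against 14 and 18 at 6 h, and 1 and 5 against 15 and 13), and of their genes Reep3 was itself called up (0.48 ± 0.10, adjusted p = 0.00588) and Nfkbia was not (0.17 ± 0.17).

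Across the 690 pairs, the unit's change followed the gene's loosely and more closely with time. The Spearman correlation of their log2 fold changes, given as a description, was 0.13 at 0.5 h, 0.23 at 1 h, 0.34 at 2 h and 0.39 at 6 h. Unit and gene share every library, the NT libraries included. When the unit was set against 1 NT library and the gene against the other, the values were 0.01 and 0.09, 0.15 and 0.16, 0.23 and 0.27, and 0.31 and 0.32. Among the 180 pairs whose unit had a mean of at least 50 fragments it was 0.32, 0.48, 0.62 and 0.63. At 6 h it was 0.45 over the 43 pairs with a gap of at most 1000 bp, 0.50 over the next 176 pairs up to 2500 bp, 0.13 over 163 up to 5000 bp and 0.42 over 308 up to 10000 bp. Past 10000 bp, over units that are not members, it was 0.26 up to 20000 bp (360 pairs), 0.21 up to 50000 bp (729 pairs) and 0.04 beyond (4244 pairs).

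The relation also differed with the kind of unit. At 6 h the Spearman correlation was 0.59 over 125 pairs whose unit overlapped its own gene's annotation, 0.50 over 119 in another gene and 0.28 over 446 outside genes. This order did not hold earlier. At 0.5, 1 and 2 h the values were 0.00, 0.05 and 0.29 in the own gene, 0.26, 0.27 and 0.51 in another and 0.11, 0.22 and 0.23 outside. At 6 h it was 0.53 over the 177 pairs with a repeat-masked gap and 0.32 over the other 513, but 0.08 against 0.13 at 0.5 h and 0.19 against 0.20 at 1 h. Over the 550 units of at least 1000 bp it was 0.46 at 6 h and over the 140 shorter ones 0.10. Over the 82 pairs whose unit had the first word it was 0.08 at 6 h, over the 35 with the second 0.24 and over the 573 with neither 0.45. At 0.5 and 1 h pairs with the second word stood above those with neither (0.18 and 0.36 against 0.14 and 0.25). These kinds were set after the data were seen, and no test of the differences was made.

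**Figure D3:**
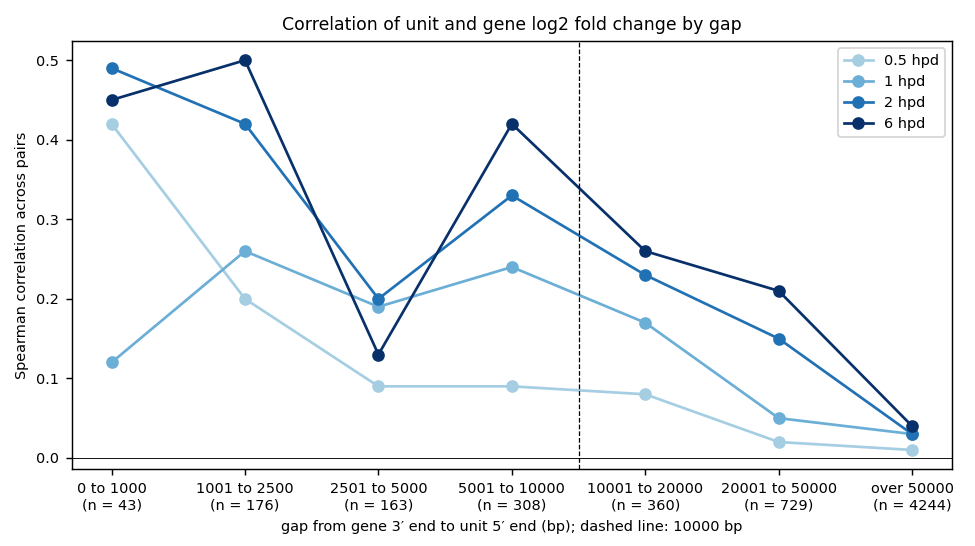
Spearman correlation across pairs (y axis) of the log2 fold change of unit and gene, by the gap in bp between them (x axis) and by time; n is the number of pairs. At 6 h it is between 0.13 and 0.50 in the 4 bins up to 10000 bp, left of the dashed line, and 0.26, 0.21 and 0.04 beyond.

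Read the other way, units mostly shared the sign of a gene that fell, and less so that of a gene that rose, a difference that was not tested. Of the 671 upstream genes tested, 3, 26, 54 and 76 rose (0.447, 3.87, 8.05 and 11.3%, against 0.527, 2.15, 4.26 and 6.61% of all TUs) and 8, 29, 34 and 52 fell (1.19, 4.32, 5.07 and 7.75%, against 0.787, 3.61, 5.57 and 9.2%) at the 4 times. Single libraries moved these counts, with 0, 4, 14 and 34 rises and 3 falls at 0.5 h without NT replicate 2, 15 and 31 rises at 1 and 2 h without NT replicate 1, 5 or 7 rises and 17 or 18 falls at 1 h without a 1 hpd library, 21 or 101 rises at 2 h without 2 hpd replicate 1 or 2, and 49, 33 or 116 rises at 6 h without 6 hpd replicate 1, 6 hpd replicate 2 or 2 hpd replicate 2. At 0.5 h 0 to 5 genes rose and 3 to 12 fell over the libraries left out. Scaled to total counts, falls outnumbered rises at every time, with 3, 19, 41 and 63 rises and 9, 40, 50 and 71 falls. Of the 78 pairs whose gene rose at 6 h, 10 units were called up and 2 down, 42 had the gene's sign, and the median unit was at 0.10 against 0.56 in the gene. Of the 55 whose gene fell, 20 units were called down, 50 had the gene's sign, and the median unit was at -0.91 against -0.94. Of the 55 units that fell, in turn, 20 followed a gene that fell, 2 a gene that rose and 33 a gene that was not called. Their median was -1.56 in the unit and -0.28 in the gene. All 18 units that rose had a gene with the same sign, 10 of them called, with medians of 0.80 and 0.52. The side by which pairs were chosen has its median partly set by that choice.

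The ratio of unit to gene was called in few pairs. Over the 690 pairs, 1 ratio rose and 2 fell at 0.5 h, 1 rose and 5 fell at 1 h, 1 rose and 10 fell at 2 h, and 6 rose and 39 fell at 6 h. The falls were 0.29, 0.725, 1.45 and 5.65% of the pairs, against 0.332, 2.26, 4.22 and 10.7% of all 6023 pairs of an unpaired extragenic unit and its nearest upstream gene at any distance. The rises were 0.145, 0.145, 0.145 and 0.87%, against 0.133, 0.631, 1.38 and 2.86%. In the joint test 18 ratios (2.61%) were called, against 8.5%. Past 0.5 h the ratio of unit to gene thus changed in a smaller share of these pairs than of pairs at large, most of which lie further apart, and at 0.5 h in about the same share. Its median log2 change was 0.00, -0.04, -0.07 and -0.19 here and -0.10, -0.16, -0.22 and -0.38 in the other pairs. Without NT replicate 2, 0, 3, 3 and 8 ratios fell and 1 rose at 6 h, and 11 were called in the joint test, as without 6 hpd replicate 2. Leaving out 6 hpd replicate 1 or 2 gave 12 or 15 falls at 6 h, and no rise without replicate 1, and leaving out 2 hpd replicate 1 or 2 gave 3 or 6 falls at 2 h. At 1 h 2 or 3 ratios fell without any library of 0.5, 1 or 6 h, and at 0.5 h 0 or 1 fell without any library of NT, 0.5 or 1 h.

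Besides those after Scn3a and Mtpap, the ratios that fell at 0.5 or 1 h belonged to Gm41046, Id2 and Nags. In these 3, picked after their values were seen, the gene had risen. The unit after Gm41046, a predicted gene, went from 0.740 and 1.02 CPM in NT to 0.125 and 0.0569 at 1 h, while the gene went from 6.26 and 6.25 CPM to 10.7 and 9.91. Id2, which encodes an inhibitor of basic helix-loop-helix factors, rose from 2.96 and 3.56 CPM in NT to 15.0 and 15.7 at 6 h, and the 701-bp unit 2428 bp past it stood at 0.606 and 1.24 CPM in NT and 0.562 and 0.815 CPM at 6 h, so that the ratio fell by 2.61 ± 0.48 (adjusted p = 0.00156). Nags, a urea cycle enzyme gene, rose by 1.41 ± 0.43 on the log2 scale at 6 h and its 449-bp unit, which begins with the first word, was at -0.73 ± 0.43, so that the ratio fell by 2.12 ± 0.61 (adjusted p = 0.0278). Id2 and Nags thus rose without a rise in the unit behind them.

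A further gene of this kind, Pou3f1, encodes a POU factor of neural and epithelial cells. It rose from 0.202 and 0.363 CPM in NT to 0.390 and 0.257 at 0.5 h, 0.376 and 0.399 at 1 h, 1.16 and 0.877 at 2 h and 2.39 and 2.91 at 6 h (3.22 ± 0.42, adjusted p = 9.62e-05). Its 336-bp unit, 5783 bp downstream at chr4:124669735-124670070, is the one whose window above opens the set with the first word. It held 1.21 and 1.89 CPM in NT, 1.44 and 1.45 at 0.5 h, 1.13 and 1.48 at 1 h, 0.657 and 1.11 at 2 h and 0.632 and 0.582 at 6 h. Unit and gene moved apart, with the unit at -1.34 ± 0.41 at 6 h (adjusted p = 0.0368 by edgeR, 0.141 by DESeq2; lost without NT replicate 2 or either 6 hpd library). Their ratio fell by 4.55 ± 0.60 at 6 h (adjusted p = 6.21e-05) and by 2.67 ± 0.62 at 2 h (adjusted p = 0.013, lost without either NT library or 2 hpd replicate 1).

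Slc39a3, a zinc importer gene, and Kctd5, a gene for a ubiquitin ligase adaptor, were each followed by a unit that was called down at 6 h and not before. The 553-bp unit after Slc39a3 stood at 1.95 and 3.85 CPM in NT, 2.77 and 3.34 at 0.5 h, 3.39 and 2.73 at 1 h, 2.58 and 2.75 at 2 h and 0.913 and 1.16 at 6 h, where it had fallen by 1.45 ± 0.35 (adjusted p = 0.0109; lost without NT replicate 2 or 6 hpd replicate 1). The ratio fell by 1.27 ± 0.40 at 6 h (adjusted p = 0.0419, lost in 7 of 10 fits without 1 library). The 19558-bp unit after Kctd5 went from 6.19 and 5.45 CPM in NT to 7.88 and 8.30 at 0.5 h, 6.77 and 9.51 at 1 h, 6.83 and 7.31 at 2 h and 3.44 and 3.03 at 6 h. Its libraries lay above NT until 2 h and below it at 6 h, where the change was -0.85 ± 0.22 (adjusted p = 0.0143; lost without NT replicate 1 or either 6 hpd library), with the gene at 0.03 ± 0.10.

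Most units with either word were lower at 6 h. These classes were set after the data were seen, so they are described and not tested. Of the 85 units with the first word, 79 had a log2 fold change below 0 at 6 h, 8 were called down and 0 up by edgeR, and the median was -0.63. In this fit the share called down, 9.41%, is near the 9.2% of all TUs. It was larger than theirs with the replicate number as a block, given at the end, and smaller without NT replicate 2. Of the 40 with the second word, 32 were below 0, 4 were called down and 0 up, and the median was -0.76. Of the 584 with neither, 311 were below 0, 43 were called down and 18 up, and the median was -0.04. At 0.5, 1 and 2 h the median with the first word was -0.17, -0.14 and -0.25. The 782 other unpaired extragenic units with the first word had a median of -0.73 at 6 h, with 716 below 0, so units far from genes had it too. Short units without regard to sequence showed it too, with a median of -0.58 over the 147 under 1000 bp against -0.04 over the 562 longer ones. Split by both, the units under 1000 bp had medians of -0.59 with the first word (67 units), -0.84 with the second (26 units) and -0.51 with neither (54 units), and those of 1000 bp or more had -0.69 (18 units), -0.49 (14 units) and -0.01 (530 units). The other unpaired units had -0.73, -0.88 and -0.30 under 1000 bp (679, 225 and 674 units) and -0.66, -0.52 and -0.14 at 1000 bp or more (103, 63 and 3609 units). Long units were thus lower with the first word than with neither, while short units were low with or without a word.

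These class values leaned on 1 control library. The 85 units with the first word together held 112 and 165 CPM in NT, 112 and 139 at 0.5 h, 115 and 128 at 1 h, 107 and 122 at 2 h and 87.7 and 88.2 at 6 h. NT replicate 2 was the highest library and both 6 hpd libraries the lowest, and replicate 2 was above replicate 1 in every group. Without NT replicate 2 the medians with the first word at 0.5, 1 and 2 h turned positive (0.11, 0.13 and 0.08), and at 6 h the median was -0.30, with 62 of 85 below 0 and 1 called down, and that with the second -0.22, while without NT replicate 1 they were -0.82 and -0.91. The units with neither word moved to 0.05 without NT replicate 2, and the other unpaired units with the first word to -0.37, with 567 of 782 below 0, those with the second to -0.40 and those with neither to -0.05. Under 1000 bp the median became -0.25, with 99 of 147 below 0 and 3 called down, and split by word it was -0.25 with the first, -0.40 with the second and -0.17 with neither, against -0.46, 0.10 and 0.08 at 1000 bp or more. Without NT replicate 2 the other unpaired units under 1000 bp were at -0.37 with the first word, -0.42 with the second and -0.05 with neither. Of the 85 units, 83 would pass the count minimum without the NT libraries, with the same median of -0.63. What differs in NT replicate 2 was not tested.

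**Figure D4:**
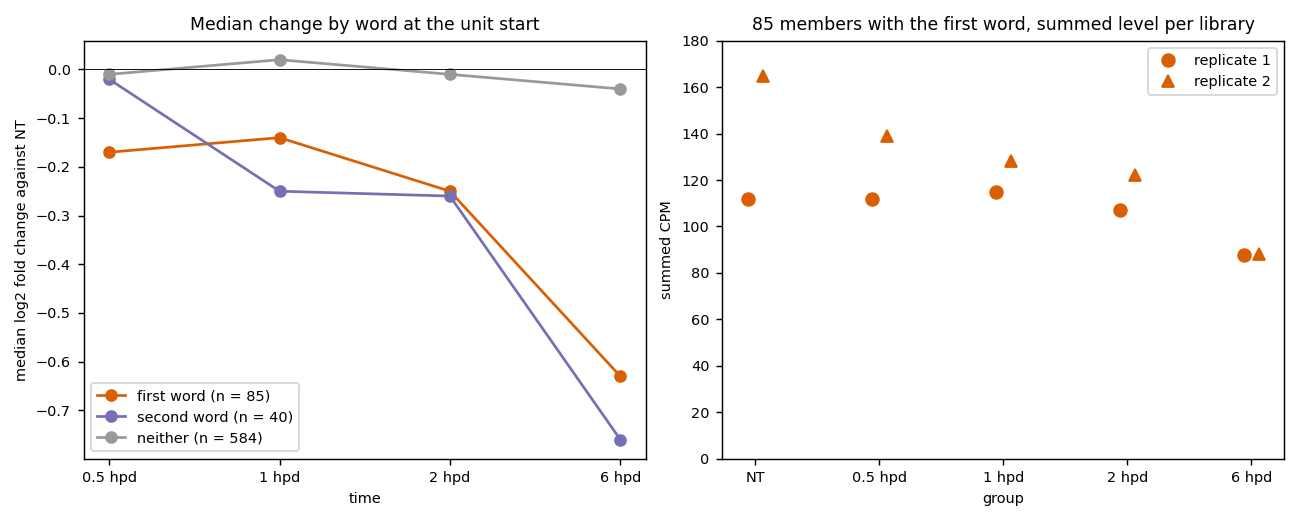
Left, the median log2 fold change against NT by time for downstream units with the first word, the second word or neither in their first 50 bases; right, the summed CPM of the 85 units with the first word in each library (circles, replicate 1; triangles, replicate 2; the axis starts at 0). At 6 h the medians are -0.63, -0.76 and -0.04, and the summed level is 87.7 and 88.2 CPM against 112 and 165 CPM in NT.

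Single units of these classes had enough fragments to be followed. Those named next, picked for their fragments or after their values were seen, include several whose windows are printed above. The 5615-bp unit after Bloc1s1, a gene for a subunit of a lysosome biogenesis complex, held 7.34 and 10.6 CPM in NT, 6.75 and 7.78 at 0.5 h, 5.96 and 6.78 at 1 h, 5.86 and 7.77 at 2 h and 5.06 and 3.79 at 6 h. Its 6 hpd libraries lay below all others, with a change of -1.03 ± 0.23 (adjusted p = 0.00667) beside -0.43 ± 0.15 in the gene (adjusted p = 0.0663). The 967-bp unit after Cdc25a, a gene for a cell cycle phosphatase, begins with the second word and stood at 9.15 and 12.2 CPM in NT, 9.76 and 12.7 at 0.5 h, 8.91 and 10.5 at 1 h, 8.44 and 10.1 at 2 h and 5.83 and 6.06 at 6 h. It too was lowest at 6 h (-0.84 ± 0.20, adjusted p = 0.00923), while Cdc25a, at 161 to 179 CPM, was at -0.04 ± 0.09. The units after Trim7, D330050I16Rik and AA388235 were at -0.36 ± 0.17, -0.45 ± 0.28 and -0.62 ± 0.28 at 6 h, none of them called. The unit after Malat1, an abundant nuclear noncoding RNA, has the first word as well and went from 1.08 and 1.45 CPM in NT to 0.492 and 0.932 at 6 h, while Malat1 rose by 0.55 ± 0.12 (adjusted p = 0.00693).

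**Figure D5:**
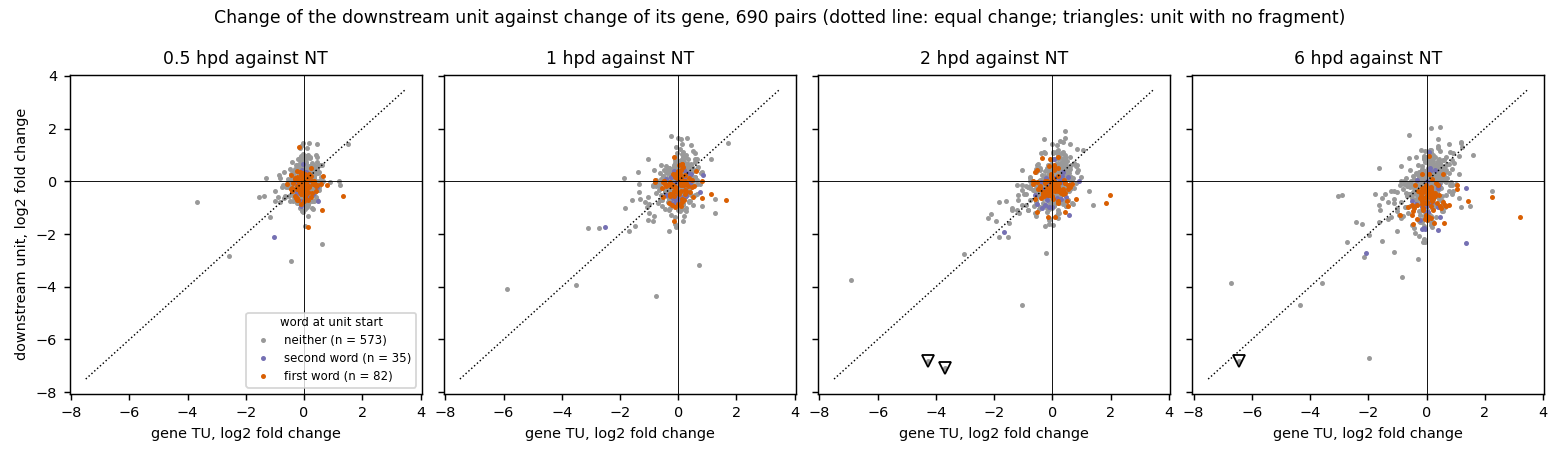
Log2 fold change of the downstream unit (y axis) against that of its gene TU (x axis) in 690 pairs at the 4 times, with units coloured by the word in their first 50 bases; the dotted line marks equal change, and triangles mark units with no fragment at that time, drawn at a fitted value that is no measured level. The correlation is 0.13, 0.23, 0.34 and 0.39 from left to right, and at 6 h units with the first word (orange) lie mostly below 0.

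Several genes of pluripotency had downstream units. Of 34 such genes tested, 5, 13, 16 and 22 fell and 0, 0, 1 and 1 rose at the 4 times. Of all TUs, 0.787, 3.61, 5.57 and 9.2% fell and 0.527, 2.15, 4.26 and 6.61% rose. Among the 34 genes, 5 had together 6 units. Those after Klf2 and Trim28, described above, both fell, the first with its gene and the second beside a gene that was not called. Klf5, a further pluripotency factor, fell from 358 and 421 CPM in NT to 239 and 233 at 6 h (-0.72 ± 0.11, adjusted p = 3.22e-04), and its unit, with 2 to 19 fragments a library, was at -0.96 ± 0.66 (adjusted p = 0.349). The unit 4564 bp past Sox2 held 0.808 and 0.727 CPM in NT and 0.562 and 0.815 CPM at 6 h and was not called at any time. The pair of units after Dppa3, a gene of germ cells and naive pluripotency, stood at -0.48 ± 0.45 and 0.87 ± 0.40 at 6 h, neither called, with a gene change of -0.61 ± 0.38. The ratio of the second to the gene was higher by 1.49 ± 0.49 at 6 h (adjusted p = 0.05, lost in 7 of 10 fits without 1 library).

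Of 32 tested genes for 3′ end cleavage, polyadenylation and termination, 0, 0, 1 and 2 fell and none rose in edgeR, with a median log2 fold change of 0.07 at 6 h, and of 12 for the Integrator complex, which cleaves nascent noncoding transcripts, 1 rose at 6 h. Cpsf4, which encodes a subunit of the cleavage and polyadenylation factor, was the 1 of these with a downstream unit. That unit, in Zkscan5, held 40.4 and 32.6 CPM in NT and 31.9 and 31.0 at 6 h (-0.22 ± 0.12, adjusted p = 0.229), beside -0.19 ± 0.10 in Cpsf4. Of 25 tested genes of cholesterol synthesis, 1, 22, 22 and 1 rose and 0, 0, 0 and 1 fell at the 4 times. Of 11 immediate early genes 3, 3, 4 and 3 rose and 0, 0, 1 and 3 fell. None of either list had a downstream unit. Beside the 4 lists of this paragraph, 0.527, 2.15, 4.26 and 6.61% of all TUs rose and 0.787, 3.61, 5.57 and 9.2% fell.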

How the data were processed

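Nascent RNA was measured by TTchem-seq in 10 libraries, 5 groups of 2 replicates. The authors deposited raw fragment counts for each transcribed unit (TU) with its annotation, coordinates and strand; per the labels and the submitters' processing notes, reads were aligned to mm10 with BWA 0.7.17-r1188 and handled with SAMtools 1.10 and Picard 2.12.0. Groups were taken from the sample labels, which do not say whether replicates were separate cultures, so p-values measure the spread between these samples. The downstream units and the gene lists were chosen with earlier results of these data known.

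Every TU that 2 or more libraries covered by over 10 fragments was fitted with edgeR 4.0.16 (R 4.3.3; TMM factors, 1 coefficient a group, quasi-likelihood F-test, Benjamini-Hochberg adjustment over all 28459 TUs), and the standard error was taken as the log2 fold change over the square root of F. The unit-to-gene ratio was tested as the interaction in a model holding both counts of each of 6023 pairs. CPM are TMM-scaled, with a floor of 3 fragments, and intervals or floors cover counting error only. DESeq2 1.42.0, limma 3.58.1 on log2 ratios, other scaling, filters, gap limits and each library left out were alternatives. The fits were tested on simulated data. Same-numbered replicates deviated together with r of 0.074 to 0.291 between groups, not over 0.1 in every pair of groups, so numbers were not taken to pair libraries.

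Named units were, at each time and direction, the 3 with the smallest p among those called with depleted libraries outside the NT range, the 4 with the smallest joint p of the ratio in each direction, the 4 with most fragments, those after genes of the lists, and those at the ends of the gap range; others are said to be picked later. Genome sequence and repeat masking were read from GRCm38.p6 (mm10), transcripts from GENCODE vM21 and promoters from RefSeq, with Python 3.11.15.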

Additional observations from a re-analysis of the deposited data

How the results depend on the processing

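Values for the 4 times against NT are given in the order 0.5, 1, 2 and 6 hpd. With each library left out in turn, the count of units ranged over 0 to 1, 0 to 6, 1 to 28, 6 to 26 called up and 1 to 6, 6 to 15, 12 to 25, 22 to 66 called down, of upstream genes 0 to 5, 4 to 37, 14 to 101, 33 to 116 up and 3 to 12, 17 to 30, 25 to 35, 35 to 62 down, and of ratios 0 to 1, 0 to 1, 0 to 2, 0 to 6 up and 0 to 2, 2 to 6, 3 to 11, 8 to 52 down. Falls between successive times ranged over 0 to 1, 0 to 1 and 1 to 3, the joint test over 26 to 58 units and 11 to 23 ratios, the median of all units, an alternative added after the data were seen, over -0.12 to 0.11, -0.12 to 0.12, -0.17 to 0.09 and -0.26 to -0.01, and the median at 6 hpd of units with the second word over -0.91 to -0.22. Of the values of named units under each library left out, 555 kept their call, 115 lost it and none reversed.

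With the replicate number as a block, 3, 9, 30 and 39 units were called up and 9, 24, 41 and 96 down, 17, 56, 115 and 137 genes up and 19, 45 and 54 down at the first 3 times, and 95 units in the joint test. Falls between successive times numbered 4, 4 and 9, with 1 rise from 1 to 2 and 2 from 2 to 6 hpd. With the block, 15 of the 67 units under 1000 bp with the first word and 3 of the 18 longer ones fell at 6 hpd. Of 28459 TUs, 4036 did. Ratios rose in 3, 5 and 3 pairs up to 2 hpd and fell in 12, 20 and 62 from 1 hpd on, with 52 in the joint test. Same-numbered replicates deviated together between all 10 pairs of groups, but with r of 0.074 and 0.094 in the weakest, so the numbers were not taken to pair the libraries and the block was kept as an alternative.

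DESeq2 called 0 units up at 0.5 hpd, 3, 9, 13 and 29 down, 0 falls from 0.5 to 1 hpd and 1 rise from 1 to 2 hpd, and gave no adjusted p for 460, 237 and 345 units at the first 3 times. Scaling to total counts gave 2 and 3 units up at 1 and 2 hpd and 2 falls from 2 to 6 hpd, and lost the calls of the units after Gabrp at 0.5 hpd, Ppil1 at 1 and 2 hpd, and Zim2 and Cckbr at 2 hpd. Fitting only the libraries compared gave 0 units up at 0.5 hpd, 12 at 1 hpd, and 72 and 124 genes up at 1 and 6 hpd. With limma 0 ratios fell at 0.5 hpd and 2 rose at 1 hpd. Calls were also lost for the units after Gm30627 at 0.5 hpd and Ppil1 and Cckbr at 2 hpd with only the libraries compared, Spic at 6 hpd with no count filter, and Gabrp at 0.5 hpd and Rsrc1 at 6 hpd with a mean of at least 50 fragments. A mean of at least 50 fragments left 0 units up at 0.5 hpd, 11 up at 6 hpd, 2, 5, 8 and 21 down, 0 falls from 0.5 to 1 hpd, 21 in the joint test, 5 genes up at 0.5 hpd, and ratios of 0 up at 0.5 hpd, 1 up at 6 hpd, 1, 2, 3 and 10 down and 6 jointly.

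A gap of at most 5000 bp left 2, 5, 10 and 28 units down, 0 falls from 0.5 to 1 hpd, 19 units jointly, ratios of 0, 0, 0 and 1 up and 0, 3, 6 and 21 down, and 8 jointly. A gap of at most 1000 bp left 0, 1, 1 and 1 units up, 0, 1, 1 and 3 down, 0 falls between successive times, 2 jointly, ratios of 0 up at every time, 0, 1, 1 and 4 down, and 1 jointly, since fewer units are counted. The correlation of unit and gene was 0.42, 0.12 and 0.49 at 0.5, 1 and 2 hpd for the shortest gaps, 0.42 at 2 hpd and 0.50 at 6 hpd up to 2500 bp, and 0.20 and 0.13 up to 5000 bp. With unit and gene set against different NT libraries it was 0.01, 0.15, 0.23 and 0.31, or 0.27 and 0.32 at 2 and 6 hpd the other way. It was negative at 0.5 hpd for the units of at least 50 fragments up to 2500 bp (-0.04) and for those with the first word at 0.5 and 2 hpd (-0.02 and -0.12). The cause of these shifts was not tested. Low counts limit the units, the median unit holding 18.1 fragments a library.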
